A study of Homo sapiens with 6 samples.

Results

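The genes described here are 9 genes of the azurophil granule, MPO, ELANE, PRTN3, AZU1, CTSG, LYZ, SRGN, SERPINB1 and CST7, taken by symbol from a count table of 19845 gene symbols, in which all 9 were present. They were chosen as azurophil granule genes of myeloid progenitors, and MPO was selected on its measured fall in the comparison made below, so its difference between groups is given as a description with no test. RNA was sequenced from Molm13, a human acute myeloid leukemia line with a rearranged MLL gene, in which every culture carried Cas9, a lentiviral guide vector and puromycin selection. The 3 sgCtrl cultures carried control guides and the 3 sgCOX4I1 cultures carried guides against COX4I1, a nuclear-encoded subunit of mitochondrial Complex IV. Per the methods each library of a group has another guide, the cultures are transduced populations of 1 line and not clones, and p-values measure the spread between such cultures.

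Azurophil or primary granules are the first granules that form in myeloid differentiation, at the promyelocyte stage, and they hold the enzymes with which neutrophils and monocytes degrade engulfed microbes. Myeloperoxidase is a heme enzyme that makes hypochlorous acid. Neutrophil elastase, proteinase 3 and cathepsin G are serine proteases, azurocidin is a related protein without protease activity, lysozyme cleaves bacterial cell walls, and the proteoglycan serglycin packs these cationic proteins in the granule. SERPINB1 inhibits the serine proteases in the cytosol, and cystatin F, the product of CST7, inhibits the cysteine proteases that process them. Transcription of these genes at the promyelocyte stage is driven by C/EBP factors, PU.1, MYB and RUNX1, which is why leukemic blasts often make their mRNAs.

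The libraries held between 17241014 and 30861943 counts, and each member had at least 1082 counts in every library. Levels are given as CPM, counts scaled to library depth with edgeR's TMM factors. COX4I1 lay between 463 and 513 CPM in the sgCtrl libraries and at 132, 378 and 133 CPM in sgCOX4I1 #1, #2 and #3, so sgCOX4I1 #2 kept the most target mRNA. The summed level of 11 myeloid markers ran from 1085 to 1131 CPM in sgCtrl and from 1004 to 1128 CPM in sgCOX4I1, with PTPRC, FLT3, SPI1 and CD33 present and CD34 at 0 to 6 counts. Of 10 markers of other cell types, 6 (among them HBB, PF4 and EPCAM) had 0 counts in all libraries, and 9 summed to at most 0.434 CPM, whereas NCAM1, also found on some myeloid leukemias, lay between 101 and 147 CPM. In these bulk libraries fewer cells that make an mRNA and less of it per cell cannot be told apart.

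MPO, on the minus strand of chromosome 17 from 58269855 to 58280935 in GRCh38, was measured at 228, 219 and 235 CPM in sgCtrl #1, #2 and #3 and at 117, 105 and 106 CPM in sgCOX4I1 #1, #2 and #3. All sgCOX4I1 libraries thus lay below all sgCtrl libraries, within a narrow range of each other. Library sgCOX4I1 #2, with the most remaining COX4I1 mRNA, had 105.0 CPM of MPO and sgCOX4I1 #3 had 105.8 CPM, too close to rank. Remaining COX4I1 mRNA does not show how much of its protein was left. The mean was 227 ± 8.28 CPM in sgCtrl and 109 ± 6.57 CPM in sgCOX4I1 (SD, n = 3 each), which is 48.1% of the sgCtrl mean. The log2 fold change was -1.06 (standard error, SE, 0.074, 95% interval -1.22 to -0.90). With each library left out in turn it stayed between -1.11 and -1.03, and it was -1.03 without sgCOX4I1 #2. MPO was among the 0.0674% of tested genes called lower at least 2-fold, from which nothing is read since this contrast chose it. The exons of MPO overlap no other annotated gene.

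**Figure D1:**
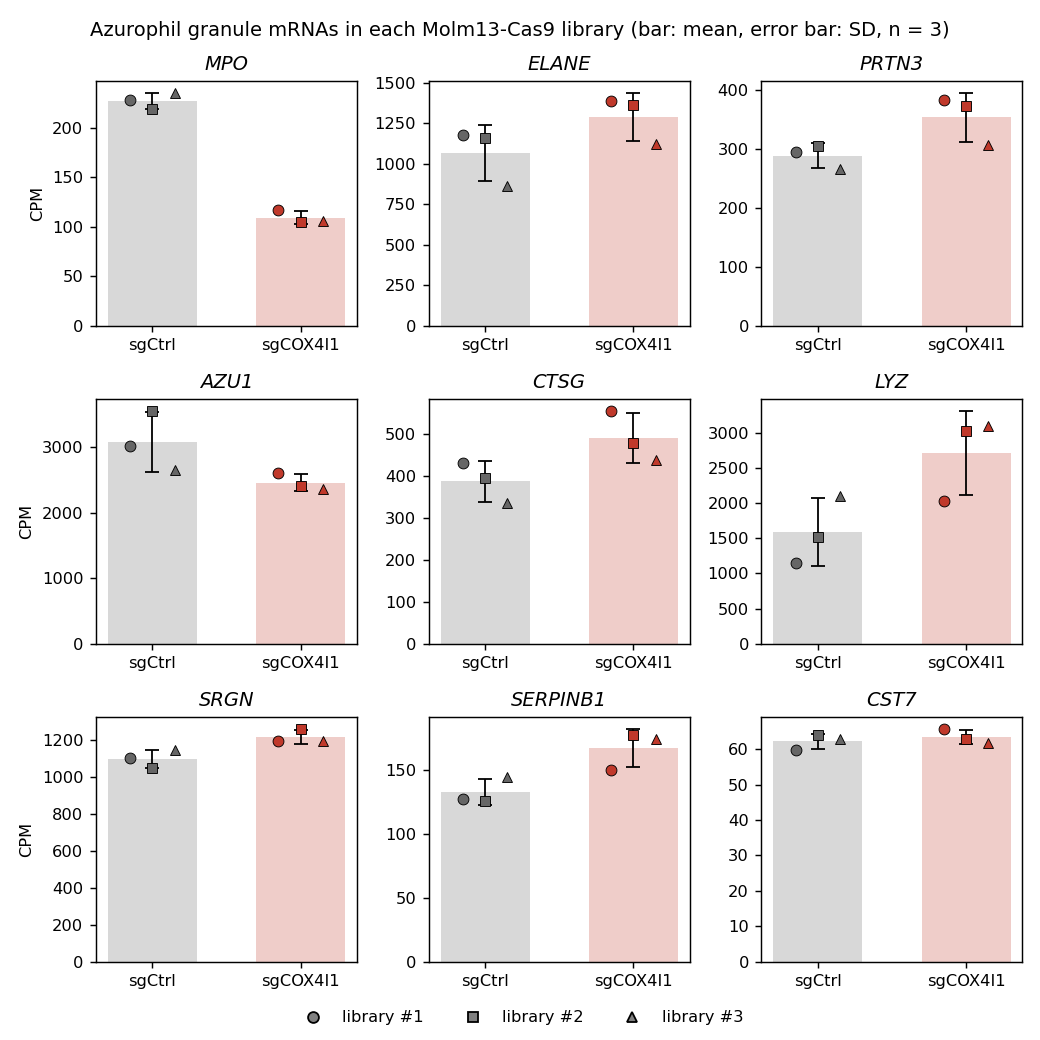
Level (CPM, linear axis from 0) of each of the 9 azurophil granule mRNAs in the 3 sgCtrl libraries (grey) and the 3 sgCOX4I1 libraries (red), with a marker shape for each library number, bars for the group means and error bars for the SD. MPO sits near 227 CPM in sgCtrl and near 109 CPM in sgCOX4I1, while CST7 has a mean of 62.2 and 63.5 CPM.

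The other 8 members were tested with edgeR's quasi-likelihood test over 11861 genes, of which 2.08% passed an adjusted p of 0.05 (here named called), and all 8 passed its filter on low counts. None of the 8 was called, beside 1.06% of all genes called higher and 1.02% called lower. At an unadjusted p under 0.05 there were 6 of the 8, beside 17.3% of all genes, and DESeq2 called 3 (CTSG, SERPINB1 and AZU1), beside 3.85% of all genes by that tool, and limma-voom 1 (LYZ), beside 2.12%. Non-overlapping groups were seen in 5 of the 8, beside 21.6% of all genes, namely in 4 members that were higher in sgCOX4I1 (PRTN3, CTSG, SRGN and SERPINB1), beside 11.2% of all genes, and in 1 that was lower (AZU1), beside 10.4%. The median log2 fold change of the 8 was 0.28, against -0.002 over all genes tested. They thus lay mostly on the opposite side of 0 from MPO, with AZU1 as the exception.

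**Figure D2:**
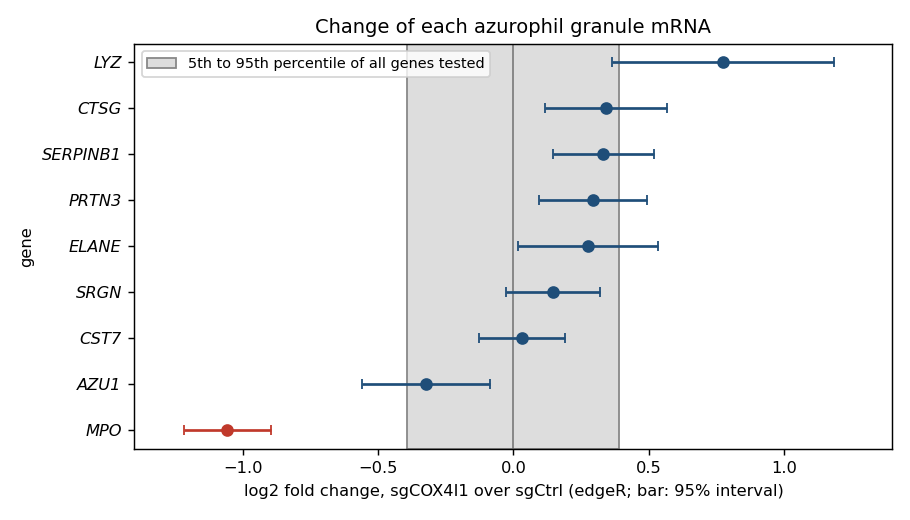
Log2 fold change of each member in sgCOX4I1 over sgCtrl (points) with its 95% interval from the edgeR fit (bars), over the range from the 5th to the 95th percentile of all 11861 genes tested (grey band, -0.39 to 0.39). MPO, in red, lies at -1.06 and LYZ at 0.77, and the other 7 members lie between -0.32 and 0.34.

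Among the serine protease family, AZU1, PRTN3 and ELANE stand in this order, all on the plus strand, on chromosome 19 from 825097 to 856247 in GRCh38, and CTSG lies on the minus strand of chromosome 14 from 24573518 to 24576250. The 250 bases before the start sites of AZU1, PRTN3 and CTSG follow, as RefSeq gives them for GRCh38.p14, since these are the members of the family whose groups did not overlap and they differ in direction. Capitals mark matches to TTGNNCAA (a form of the C/EBP site), AACNG (MYB), GAGGAA (PU.1) and TGTGGT (RUNX), each searched on both strands, and to TATAA (the TATA box), searched on the gene's strand. The matches do not overlap one another, and the start of AZU1 is that of its MANE Select transcript, at 827837, inside the annotated gene.
AZU1, chr19:827587-827836, plus strand: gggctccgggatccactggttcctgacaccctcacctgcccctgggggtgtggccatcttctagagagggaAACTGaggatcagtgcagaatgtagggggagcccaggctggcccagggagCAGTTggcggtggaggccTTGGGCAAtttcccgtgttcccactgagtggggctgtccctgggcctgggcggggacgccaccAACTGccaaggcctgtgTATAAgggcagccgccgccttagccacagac
PRTN3, chr19:840749-840998, plus strand: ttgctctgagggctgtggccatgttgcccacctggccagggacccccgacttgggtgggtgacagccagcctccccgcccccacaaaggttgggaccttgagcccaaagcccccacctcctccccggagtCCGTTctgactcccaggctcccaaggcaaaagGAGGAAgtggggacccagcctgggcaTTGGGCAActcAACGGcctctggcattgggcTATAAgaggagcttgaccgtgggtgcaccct
CTSG, chr14:24576251-24576500, minus strand: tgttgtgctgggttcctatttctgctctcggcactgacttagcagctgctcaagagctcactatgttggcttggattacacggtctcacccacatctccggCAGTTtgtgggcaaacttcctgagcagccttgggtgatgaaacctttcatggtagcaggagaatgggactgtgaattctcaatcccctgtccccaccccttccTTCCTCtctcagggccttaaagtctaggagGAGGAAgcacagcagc
AZU1 and PRTN3 both held the same C/EBP match, TTGGGCAA, at bases -111 to -104 and -62 to -55 from the start, and a TATA box at -31 to -27, and CTSG held neither. PRTN3 and CTSG held GAGGAA, at -88 to -83 in PRTN3 and on each strand in CTSG, and AZU1 did not. MYB letters stood in all 3 and TGTGGT in none. Of 35116 RefSeq promoters of the same length, TTGNNCAA was in 4.90%, AACNG in 70.6%, GAGGAA in 23.6%, TGTGGT in 11.0% and TATAA in 13.6%. The RefSeq set used here had no entry for ELANE. It held the promoter of SERPINB1, whose sgCOX4I1 libraries all lay above sgCtrl. This promoter had AACNG at -191 to -187 and TATAA at -30 to -26, and neither GAGGAA nor TTGNNCAA. Whether such letters go with the direction of change was not tested. These are matches of letters, not measured binding.

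ELANE, which encodes neutrophil elastase, was measured at 1178, 1155 and 864 CPM in sgCtrl #1, #2 and #3 and at 1389, 1361 and 1120 CPM in the sgCOX4I1 libraries in the same order. The groups overlapped, because sgCOX4I1 #3 lay below sgCtrl #1 and #2. The log2 fold change was 0.28 (SE 0.12, 95% interval 0.02 to 0.53, adjusted p = 0.255), and over 11 alternatives the adjusted p ran from 0.109 to 0.555.

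PRTN3, which encodes proteinase 3, was at 295, 305 and 265 CPM in sgCtrl #1, #2 and #3 and at 382, 372 and 305 CPM in sgCOX4I1 #1, #2 and #3. Every sgCOX4I1 library lay above every sgCtrl library, though sgCOX4I1 #3 (305.4 CPM) exceeded sgCtrl #2 (305.1 CPM) only narrowly. The log2 fold change of 0.29 (SE 0.093) had an adjusted p of 0.124, from 0.0493 with no filter on low counts to 0.323 over the alternatives.

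CTSG, the gene of cathepsin G, was at 431, 395 and 334 CPM in the sgCtrl libraries and at 554, 479 and 437 CPM in the sgCOX4I1 libraries, again without overlap. Its log2 fold change was 0.34 (SE 0.11, adjusted p = 0.112). It passed the threshold in 3 of the 11 alternatives, with DESeq2 (adjusted p = 0.0356), with no filter (0.0306) and without sgCtrl #1 (0.0263), while the highest value was 0.347.

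AZU1, the gene of azurocidin, was measured at 3014, 3554 and 2651 CPM in sgCtrl and at 2609, 2406 and 2361 CPM in sgCOX4I1. It was thus lower in all 3 sgCOX4I1 libraries, with a smaller spread among them (SD 132 CPM) than among the sgCtrl libraries (SD 455 CPM). The log2 fold change was -0.32 (SE 0.11, 95% interval -0.56 to -0.09, adjusted p = 0.149). DESeq2 gave an adjusted p of 0.0324, the lowest of its alternatives, of which the highest was 0.499. A processed pseudogene of AZU1 is annotated, so some of its reads could have been left uncounted.

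Ratios within the family were compared library by library. The log2 ratio of PRTN3 to ELANE ran from -1.998 to -1.71 in sgCtrl and from -1.87 to -1.86 in sgCOX4I1, and that of CTSG to ELANE from -1.55 to -1.37 and from -1.51 to -1.32, so both overlapped between groups. The log2 ratio of AZU1 to ELANE, its neighbour in the same cluster, ran from 1.36 to 1.62 in sgCtrl and from 0.82 to 1.08 in sgCOX4I1, without overlap. These ratios do not depend on the scaling of the libraries and are given without a test.

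LYZ, the gene of lysozyme, varied the most between cultures of a group, relative to its mean, among the 9. It was measured at 1149, 1520 and 2100 CPM in sgCtrl #1, #2 and #3 and at 2026, 3022 and 3104 CPM in sgCOX4I1 #1, #2 and #3. The groups overlapped through sgCtrl #3 and sgCOX4I1 #1. The log2 fold change was 0.77 (SE 0.19, 95% interval 0.36 to 1.18), the largest among the members other than MPO, with an adjusted p of 0.0534. It passed in 5 of 11 alternatives, with limma-voom (adjusted p = 0.0493), with no filter (0.000709), without sgCtrl #1 (log2 fold change 0.58, adjusted p = 0.0430), without sgCtrl #3 (1.03 and 0.00426) and without sgCOX4I1 #1 (0.95 and 0.00775), and its highest adjusted p was 0.298. Of its exonic bases, 34.7% overlap an antisense gene on the other strand. The library kit was directional but the strand setting of the counting is not given in the sources used here, so reads of both genes may be in this count.

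SRGN, the gene of serglycin, was at 1102, 1049 and 1147 CPM in sgCtrl and at 1196, 1262 and 1194 CPM in sgCOX4I1. The groups did not overlap, but the distance was small, with a log2 fold change of 0.15 (SE 0.080, 95% interval -0.03 to 0.32) and an adjusted p of 0.375. No alternative called it (adjusted p from 0.282 to 0.680 over 11 alternatives). A processed pseudogene of SRGN is annotated as well.

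Of the inhibitors, SERPINB1 was measured at 128, 126 and 145 CPM in sgCtrl and at 149.8, 178 and 174 CPM in sgCOX4I1, with no overlap. Its log2 fold change was 0.33 (SE 0.086, 95% interval 0.15 to 0.52, adjusted p = 0.0631). The adjusted p was 0.0169 with DESeq2, 0.0188 with no filter, 0.0343 without sgCtrl #3 and 0.0257 without sgCOX4I1 #1, and it reached 0.313 over the alternatives. CST7, the gene of cystatin F, was at 59.9, 63.9 and 62.7 CPM in sgCtrl and at 65.7, 62.9 and 61.9 CPM in sgCOX4I1. These values were intermixed, and the 95% interval of its log2 fold change, -0.13 to 0.19 around 0.03, was among the narrowest of the members (adjusted p = 0.873).

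Relative to each of the other 8 mRNAs, MPO was lower in every sgCOX4I1 library than in every sgCtrl library. All 8 ratios, and the share of MPO in the sum, hold MPO, which was chosen for its fall. They are a description and not 8 separate results. The log2 ratio of MPO to SRGN, the tightest within sgCtrl, was -2.27, -2.26 and -2.29 in sgCtrl #1, #2 and #3 and -3.36, -3.59 and -3.49 in sgCOX4I1 #1, #2 and #3. The mean difference in log2 ratio was smallest against AZU1, at -0.74, and largest against LYZ, at -1.85. MPO made up between 2.61% and 3.01% of the summed CPM of the 9 members in sgCtrl and between 1.14% and 1.38% in sgCOX4I1. Without MPO, the sum of the other 8 was 7697 ± 421 CPM in sgCtrl and 8757 ± 386 CPM in sgCOX4I1 (SD, n = 3 each). With MPO included the sum was 112% of the sgCtrl mean. This excess depended on LYZ, which was not called. Without LYZ the sum was 6335 ± 588 CPM in sgCtrl and 6149 ± 358 CPM in sgCOX4I1, or 97.1%, with overlapping groups. Without both LYZ and MPO it was 6108 ± 596 and 6040 ± 354 CPM, or 98.9%, again overlapping. In this last sum the lower mean of AZU1 (3073 CPM in sgCtrl, 2459 CPM in sgCOX4I1) offset higher means of the other members.

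**Figure D3:**
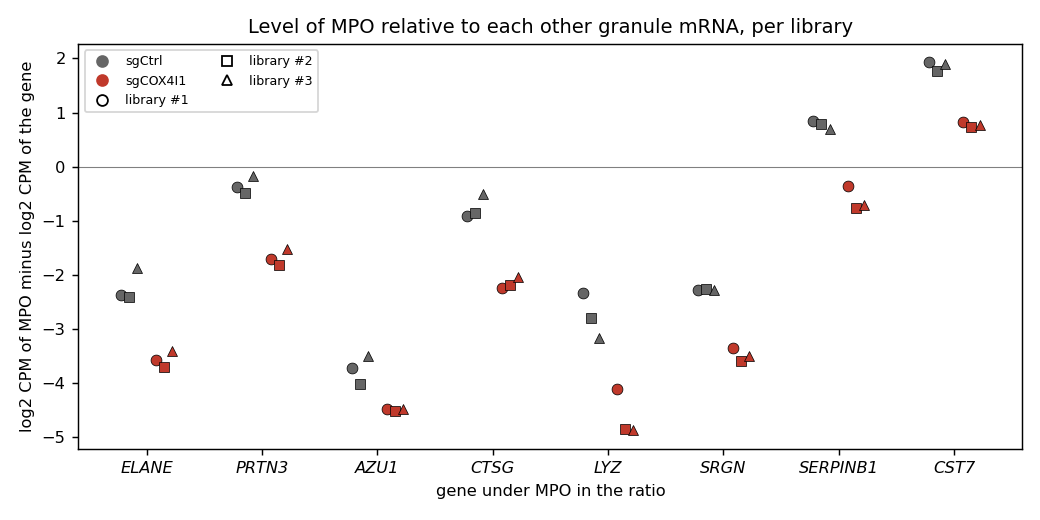
Log2 CPM of MPO minus log2 CPM of each other member in each library (grey sgCtrl, red sgCOX4I1, marker shape for the library number). For all 8 genes the 3 sgCOX4I1 points lie below the 3 sgCtrl points, with mean differences from -0.74 (AZU1) to -1.85 (LYZ). All 8 ratios share MPO, which was chosen for its fall in this contrast.

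Levels of different genes can be compared only per length, as CPM per kilobase of the MANE Select transcript. On this scale the mean in sgCtrl (± SD, n = 3) was 3388 ± 501 for AZU1, 1172 ± 192 for ELANE, 1067 ± 322 for LYZ, 903 ± 40.2 for SRGN, 423 ± 53.6 for CTSG and 292 ± 21.2 for PRTN3. MPO (70.7 ± 2.57), CST7 (69.8 ± 2.32) and SERPINB1 (53.6 ± 4.21) followed. LYZ overlapped with ELANE and SRGN in that order, and MPO with CST7, whereas the other neighbours were apart in all 3 libraries. In sgCOX4I1 the order per length was AZU1 (2711 ± 146), LYZ (1824 ± 403), ELANE (1419 ± 163), SRGN (1000.2 ± 32.1), CTSG (536 ± 65.2), PRTN3 (358 ± 42.2), CST7 (71.3 ± 2.25), SERPINB1 (67.5 ± 6.11) and MPO (34.0 ± 2.04). MPO thus went from the level of CST7 to the lowest of the 9, while the ranges of LYZ and ELANE, and of CST7 and SERPINB1, overlapped.

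Granule genes beyond the members were read from 8 lists written from general knowledge. Earlier results of these data were known when the lists were written, so the shares below are a description. In all, 96 genes of the lists were tested. Of these, 5 were called, all higher in sgCOX4I1, and the 5 are spread over 4 lists. This is 5.21%, beside 2.08% of all genes called in either direction and 1.06% called higher. The counts per list below stand beside the same shares. At an unadjusted p under 0.05 the share over all genes was 17.3%. DESeq2 called 7 of the genes, beside its background of 3.85%, and limma-voom 6, beside 2.12%. Without sgCtrl #2, and likewise without sgCOX4I1 #2, none of the 96 was called by edgeR.

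Of 7 tested genes for other azurophil granule proteins, none was called by edgeR, DESeq2 or limma-voom, and 3 had an unadjusted p under 0.05, with a median log2 fold change of -0.04. PRSS57, a further serine protease of the granule, was at 215 ± 16.8 CPM in sgCtrl and 197 ± 23.5 CPM in sgCOX4I1 (SD, n = 3 each), and RNASE2, the eosinophil-derived neurotoxin, at 283 ± 25.7 and 275 ± 30.8 CPM. BPI, which binds bacterial lipopolysaccharide, was at 44.9 ± 1.80 and 39.5 ± 0.693 CPM, without overlap (log2 fold change -0.19, adjusted p = 0.241). CTSC, the enzyme that activates the granule proteases, had a log2 fold change of 0.20 (adjusted p = 0.191), and CD63, a granule membrane protein, one of 0.23 (adjusted p = 0.206). The defensin genes DEFA1, DEFA1B and DEFA3 had 0 counts in all libraries, which allows up to 0.0972 to 0.174 CPM from counting error only, but these copies are near-identical and their reads could have been left uncounted. DEFA4 had 1 count in 1 library.

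For lysosomal hydrolases that the granules also hold, all 18 genes tested had a log2 fold change above 0, with a median of 0.19. Over all genes tested, 5865 of 11861 lay above 0. Groups did not overlap in 4 of the 18, all higher in sgCOX4I1, beside 11.2% of all genes. By edgeR 1 of the 18 was called, beside 2.08% of all genes. FUCA1, an alpha-fucosidase, rose from 33.9 ± 5.34 to 48.2 ± 4.15 CPM (SD, n = 3 each), a log2 fold change of 0.51 (SE 0.11, adjusted p = 0.0349), and was not called without sgCtrl #2 (adjusted p = 0.220), sgCOX4I1 #2 (0.162) or sgCOX4I1 #3 (0.0872). CTSD, cathepsin D, had a larger log2 fold change of 0.84 with a wide spread (SE 0.24, adjusted p = 0.0915), from 79.6 to 141 CPM in sgCtrl and from 118 to 281 CPM in sgCOX4I1.

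Among protease inhibitors and the proteases that cystatin F acts on, 2 of 10 tested genes were called. CTSL, cathepsin L, rose from 27.4 ± 3.76 to 44.6 ± 4.39 CPM (log2 fold change 0.70, SE 0.11, adjusted p = 0.00622). CSTB, an inhibitor of cathepsins in the cytosol, rose from 106 ± 4.52 to 148 ± 15.3 CPM (log2 fold change 0.48, SE 0.084, adjusted p = 0.0123). Without sgCtrl #2 the adjusted p was 0.0934 for CTSL and 0.1003 for CSTB, and without sgCOX4I1 #2 it was 0.0575 and 0.0637. Pseudogenes of FUCA1, CTSL and CSTB are annotated, which may have taken some of their reads.

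Specific and gelatinase granule proteins belong to a later stage of neutrophil maturation, and several of their genes were close to absent. LTF, CAMP, LCN2 and MMP8 had at most 3 counts in any library, and OLFM4, PGLYRP1, CRISP3 and CD177 had 0 in all. Of the 6 genes tested none was called by edgeR, DESeq2 or limma-voom, and 1 had an unadjusted p under 0.05. All 6 had a log2 fold change above 0, with a median of 0.26. MMP9, the gelatinase itself, was at 3.63 ± 0.690 CPM in sgCtrl and 3.73 ± 1.93 CPM in sgCOX4I1, and the membrane-bound protease MMP25 at 20.6 ± 4.58 and 25.6 ± 4.21 CPM (adjusted p = 0.340), both with overlapping groups. PTX3, a secreted pentraxin, had 37 to 82 counts per library. CHI3L1, a chitinase-like protein, was the most abundant of the list, at 658 ± 68.0 CPM in sgCtrl and 768 ± 134 CPM in sgCOX4I1 (SD, n = 3 each), with overlapping groups (adjusted p = 0.354).

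The factors that drive primary granule genes gave 1 call among 17 tested. CEBPB, a C/EBP factor of monocytes and stress responses, rose from 42.9 ± 4.37 to 66.5 ± 14.1 CPM (log2 fold change 0.63, SE 0.13, adjusted p = 0.0259), and was not called without sgCtrl #2 (0.220), sgCOX4I1 #2 (0.116) or sgCOX4I1 #3 (0.0522). CEBPE, the C/EBP factor of later granulocytes, was at 2.203 ± 0.943 and 1.08 ± 0.283 CPM, without overlap and at low counts (log2 fold change -1.01, SE 0.35, adjusted p = 0.154). MYC was at 484 ± 56.8 and 584 ± 20.6 CPM (log2 fold change 0.27, adjusted p = 0.139). The named regulators of the promyelocyte stage had log2 fold changes nearer to 0, namely CEBPA at -0.09 (SE 0.11), MYB at -0.05 (0.071), SPI1, the gene of PU.1, at -0.06 (0.092) and RUNX1 at -0.10 (0.068), and GFI1 lay at -0.08 (0.079). Of these 5 only RUNX1 had groups that did not overlap (adjusted p = 0.503).

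Myeloperoxidase needs heme, and of 12 tested genes of heme synthesis and breakdown only HMOX1, which degrades heme, was called. It rose from 6.42 ± 2.27 to 22.8 ± 13.1 CPM (log2 fold change 1.80, SE 0.34, adjusted p = 0.0163), with adjusted p = 0.166 without sgCtrl #2 and 0.0603 without sgCOX4I1 #2. ALAS1, the first enzyme of heme synthesis, was at 108 ± 0.406 and 102 ± 2.53 CPM, without overlap (log2 fold change -0.09, adjusted p = 0.564), and FECH, which inserts the iron, at 19.4 ± 0.374 and 23.7 ± 1.65 CPM, also without overlap (0.30, adjusted p = 0.146).

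In the endoplasmic reticulum, where granule proteins fold, none of 10 tested genes was called by edgeR, although 3 had an unadjusted p under 0.05 and DESeq2 and limma-voom each called 1. HSPA5, the chaperone BiP, was at 320 ± 13.2 and 394 ± 18.7 CPM, without overlap (log2 fold change 0.30, SE 0.074, adjusted p = 0.0560), and was that 1 gene. CALR, a chaperone of the MPO precursor, had a log2 fold change of 0.11 (adjusted p = 0.570). Of 18 genes for granule formation and inherited neutropenia none was called by any of the 3 tools and 2 had an unadjusted p under 0.05. Their median log2 fold change was -0.06, with RAB27A, which acts in granule release, at 0.22 (adjusted p = 0.165) and NBEAL2 at -0.23 (adjusted p = 0.234).

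**Figure D4:**
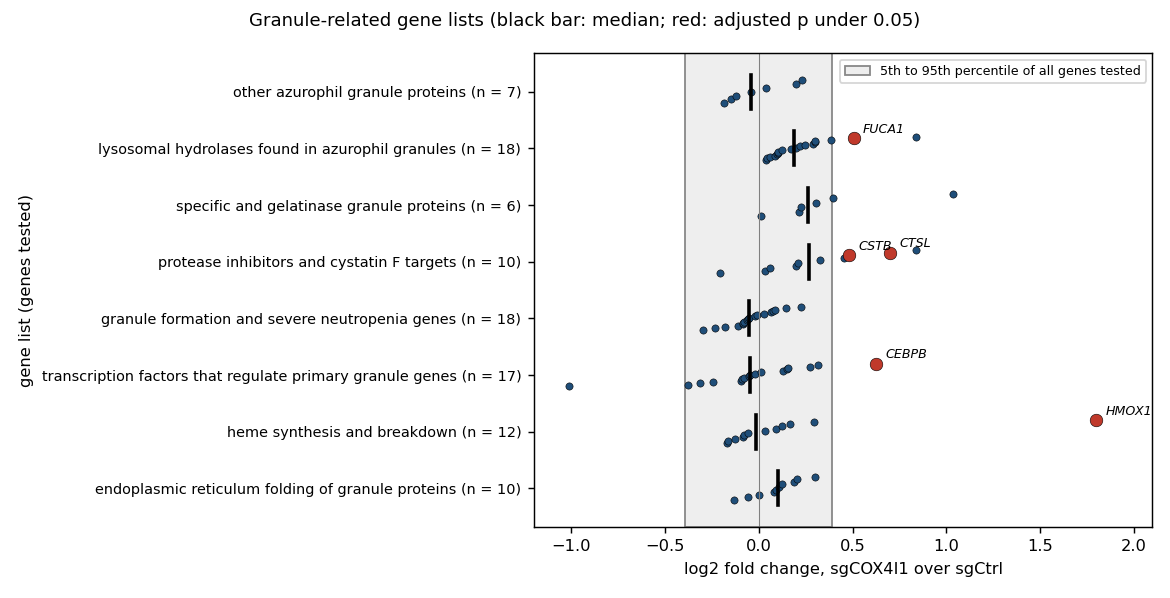
Log2 fold change in sgCOX4I1 over sgCtrl of each tested gene (points) of the 8 granule-related lists, with the list median (black bar), genes called at an adjusted p under 0.05 in red, and the range from the 5th to the 95th percentile of all genes tested (grey band). The 5 called genes, FUCA1, CTSL, CSTB, CEBPB and HMOX1, all lie above 0, and the medians of the lists run from -0.06 to 0.27.

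Genes beside the members were compared to see whether a difference extended along the chromosome. Within 100 kb of MPO, 4 of 7 other genes of the table were tested and none was called by edgeR or limma-voom, whereas DESeq2 called 1 and 1 had an unadjusted p under 0.05. LPO, the gene of the paralog lactoperoxidase, which overlaps MKS1 on the other strand, lay at 22.0 ± 0.713 CPM in sgCtrl and 24.7 ± 0.469 CPM in sgCOX4I1 (log2 fold change 0.17, adjusted p = 0.382), and the paralog EPX was too low to test. TSPOAP1 was the gene with an unadjusted p under 0.05, and like MPO it was lower in sgCOX4I1. It lay at 1002 ± 103 and 781 ± 70.5 CPM, without overlap (log2 fold change -0.36, SE 0.096, adjusted p = 0.0729). Within 100 kb of the AZU1-PRTN3-ELANE cluster, 6 of 9 other genes were tested, with log2 fold changes from -0.17 to 0.22, of which none was called by the 3 tools and 1, MED16, had an unadjusted p under 0.05. CFD, complement factor D, which follows ELANE directly and overlaps MED16 on the other strand, was at 365 ± 20.7 and 330 ± 55.5 CPM (-0.15, adjusted p = 0.504). None of the 3 neighbours of CTSG, GZMH, GZMB and CMA1, passed the filter on low counts.

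**Figure D5:**
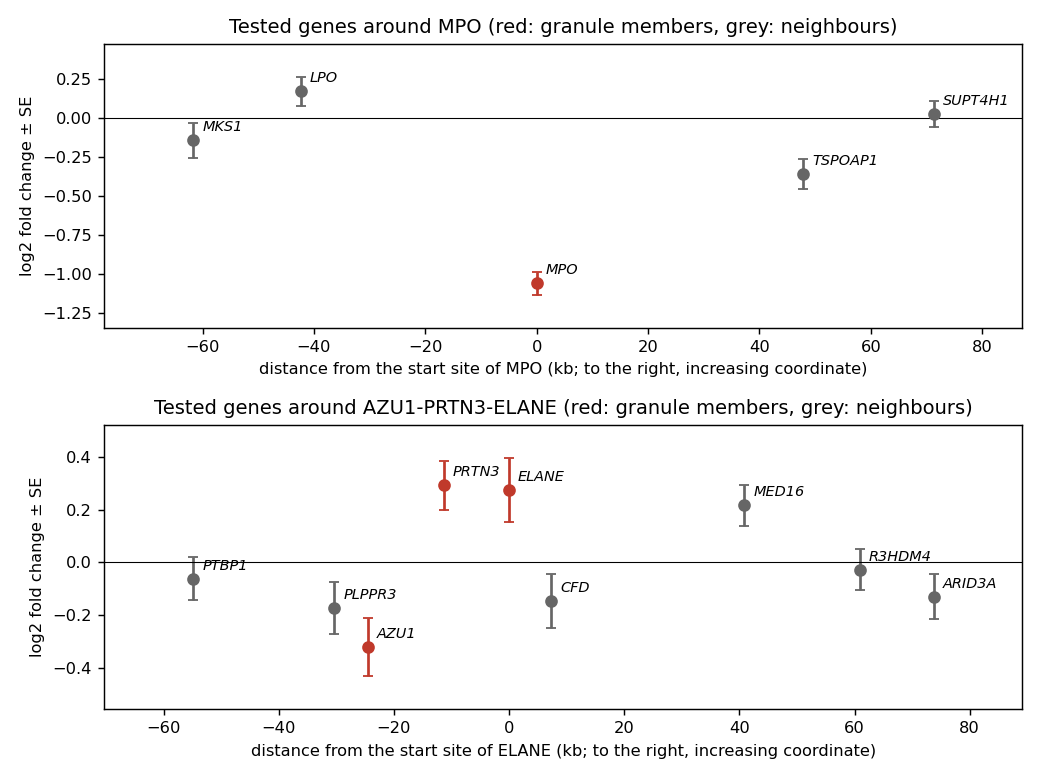
Log2 fold change (± SE) of tested genes within 100 kb of MPO (upper panel) and of the AZU1-PRTN3-ELANE cluster (lower panel), by the distance in kb of their start sites from that of MPO or ELANE, with members in red and neighbours in grey. MPO lies at -1.06 while its 4 tested neighbours lie between -0.36 and 0.17, and AZU1 lies below 0 while PRTN3 and ELANE lie above it.

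Likeness to MPO was measured as Pearson's r of log2 CPM over the 6 libraries, among 8987 genes outside the 9 with a mean of at least 10 CPM, as a description, since libraries and a difference between groups are shared by all genes. The closest 5 were MLLT3 (r = 0.994), NCALD (0.994), F11R (0.993), RNFT1 (0.992) and SREBF2 (0.992). All 5 were lower in every sgCOX4I1 library than in every sgCtrl library, beside 10.4% of all genes tested. This follows from the pick, since an r this close to 1 with MPO, whose groups lay apart, selects such genes. Their log2 fold changes were far smaller than that of MPO, from -0.33 for MLLT3 to -0.19 for F11R, and none was called.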

How the data were processed

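RNA-seq of 6 Molm13-Cas9 libraries was used, 3 with sgCtrl and 3 with sgCOX4I1. The authors deposited 1 table of raw counts per gene symbol, without normalization. The submitters' processing notes name bcl2fastq 2.20.0.422, STAR 2.6.0a, edgeR and GRCh38, and the column names point to marked duplicates and HTSeq, whereas the paper's methods describe Trimmomatic, Bowtie2 and RSEM. Columns were read by their letter (C for control, K for knockout) and number, and 0 columns were left unmapped.

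Counts were analysed in R 4.3.3 with edgeR 4.0.16, using TMM, its expression filter and the quasi-likelihood test without covariates, with Benjamini-Hochberg adjustment over 11861 genes, and an adjusted p under 0.05 counted as called (247 genes, and 24 of them at least 2-fold). Log2 CPM used a prior count of 2. The fitting steps were tested on simulated data beforehand. Libraries within a group were further apart than sampling noise (chi-square divided by its degrees of freedom 11.0 to 27.5), so none was treated as a copy. The 95% intervals come from the edgeR fit and hold the spread between cultures, whereas limits for 0 counts (3 counts) cover counting error only.

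Positions and MANE Select lengths came from GENCODE 44 on GRCh38, and promoter sequences from RefSeq on GRCh38.p14, which matched 4 of the 9 members. The members and lists were chosen with earlier results of these data known. Genes were named by a rule, namely all 9 members, called list genes and up to 3 more per list by adjusted p, COX4I1, the 5 genes most like MPO by each of 2 measures, and called neighbours. Other genes named were chosen after their values were seen, for what is known of them. Alternatives were each library left out in turn, a block for the replicate number, no filter on counts, a minimum of 10 counts per library, plain library sizes, DESeq2 1.42.0 and limma-voom from limma 3.58.1. The ranges of adjusted p in the results cover the 11 alternatives without the block. Some list genes are not reported here.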

Additional observations from a re-analysis of the deposited data

How the results depend on the processing

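The log2 fold change of MPO stayed between -1.11 and -1.03 over all 12 alternatives, and the sum of the 9 members between 109% and 115% of sgCtrl, or between 111% and 117% without MPO, whether another scaling was used or 1 library was left out. With LYZ left out of the sum, a choice made after seeing the data, these became 97.1% and 98.9%. Counts of calls depended on the processing, and the cause was not tested. At an adjusted p under 0.05, 247 genes were called, against 437 with DESeq2 and 537 with no filter on low counts, and from 24 (without sgCtrl #2) to 561 (without sgCtrl #1) with 1 library left out, with 51 without sgCOX4I1 #2 and 89 without sgCOX4I1 #3. At least 2-fold there were 24, against 41 with no filter and from 9 (without sgCtrl #2) to 50 (without sgCtrl #3) with 1 library left out. Among the 8 members other than MPO, 0 were called, against 3 with DESeq2, 4 with no filter, 1 with limma-voom and from 0 to 2 with 1 library left out (2 without sgCtrl #1, sgCtrl #3 or sgCOX4I1 #1). For the lists the count was 5, against 9 with no filter and from 0 (without sgCtrl #2 or sgCOX4I1 #2) to 9 (without sgCtrl #1) with 1 library left out, with 8 without sgCOX4I1 #1 and 3 without sgCOX4I1 #3. The neighbouring genes went from 0 to 1 with DESeq2 or with no filter, and from 0 to 1 with 1 library left out (1 without sgCtrl #1), an alternative added after seeing the data. For the members other than MPO and the called list genes, no alternative reversed a direction.

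Whether the replicate numbers pair the cultures was not settled. Deviations from the group means correlated at 0.38, -0.02 and 0.29 for the pairs #1, #2 and #3. The #1 and #3 pairs had the highest values of all pairs across the groups. The crossed pairs gave -0.32 (sgCtrl #1 with sgCOX4I1 #3) and -0.38 (sgCtrl #3 with sgCOX4I1 #1). The #2 libraries did not correlate best with each other. With the replicate number as a block, 1408 genes were called (11.9%), 57 of them at least 2-fold, with 6 of the 8 members (ELANE, PRTN3, CTSG, LYZ and SERPINB1 higher, AZU1 lower), 25 list genes and 2 neighbours.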

Other observations

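Markers of myeloid identity were examined as a list of 11 genes, of which 10 were tested and none was called by edgeR, DESeq2 or limma-voom, and 1 had an unadjusted p under 0.05. FLT3, the receptor kinase that drives this line, was at 208 ± 12.3 CPM in sgCtrl and 178 ± 18.9 CPM in sgCOX4I1 (SD, n = 3 each), without overlap (log2 fold change -0.23, adjusted p = 0.190). CD33, a surface lectin of myeloid cells, was at 50.3 ± 1.81 and 55.7 ± 3.67 CPM, also without overlap (0.15, adjusted p = 0.377), while PTPRC, the pan-leukocyte antigen, was at 261 ± 14.8 and 257 ± 14.1 CPM and CSF1R, the receptor of monocyte growth factor, at 50.1 ± 4.36 and 50.4 ± 6.67 CPM. NCAM1, the marker of other cells that was present, had a log2 fold change of 0.26 (adjusted p = 0.170) with overlapping groups.

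After the group means were removed, the 5 genes with the highest Pearson's r to MPO over the 6 libraries were MFHAS1 (0.997), NCALD (0.994), MOB3B (0.985), FUCA2 (0.984) and MRPL45 (0.979), given as a description. NCALD is the 1 gene that this list shares with the 5 nearest before the means were removed. Its level was 23.3 ± 0.408 CPM in sgCtrl and 19.2 ± 0.657 CPM in sgCOX4I1 (SD, n = 3 each).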
